A study of Homo sapiens with 6 samples.

Results

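Respiratory complex I is the first enzyme of the mitochondrial electron transport chain. The genes described here are those annotated as protein coding whose symbol begins with Nduf or mt-Nd, and the table held 53 of them among 22413 genes, of which 14198 were protein coding. They were divided by role into 7 nuclear core subunits, 29 accessory subunits, 7 mitochondrially encoded subunits and 8 assembly factors with Ndufaf names. Ndufa4, now placed in complex IV, and its relative Ndufa4l2 were kept apart. The cells were BaF3-T315I, a murine haematopoietic line of the BaF3 type that carries a stably transfected BCR-ABL gene with the T315I mutation, which makes the kinase resistant to imatinib. There were 3 controls and, in the other group, 3 samples treated for 48 h with I13, an inhibitor of histone deacetylases (HDACs), at 1.1 µM, and the transfected BCR-ABL was shared by both groups. The labels give neither the vehicle nor the time of the control, and no source used here says whether the line is 1 clone. The methods speak of independent experiments for the study in general but do not say so of the sequenced replicates, so the p-values measure only the spread between these samples, which may be technical.

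Complex I oxidises NADH in the mitochondrial matrix, passes the electrons along iron-sulfur clusters to ubiquinone, and pumps protons across the inner membrane. It has the shape of an L, with a matrix arm that carries the redox centres and a membrane arm that pumps. The core subunits are conserved from bacteria and do the catalysis, those of the matrix arm being encoded in the nucleus and those of the membrane arm in mitochondrial DNA. The accessory subunits surround the core and stabilise it, and the assembly factors help to build the complex but are not part of the finished enzyme. The nuclear and mitochondrial genes are transcribed by different RNA polymerases.

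Expression was measured as FPKM, the number of sequenced fragments of a gene scaled by gene length and by library size. The library totals recovered from the FPKM values lay between 16762119 and 17722950 fragments. The control and I13 samples carry the same replicate numbers, 1 to 3, and same-numbered samples are called a pair below. Csf2rb and Il3ra are receptor chains that make BaF3 cells responsive to interleukin-3. Csf2rb was at 239 to 463 FPKM in control and at 448 to 838 FPKM in I13. Il3ra was at 9.07 to 13.6 FPKM in control and at 12.2 to 18.2 FPKM in I13. The groups overlapped for both genes (limma adjusted p = 0.220 and 0.408). Csf2rb2, on the same list, was at 196 to 408 FPKM in control and at 449 to 795 FPKM in I13, without overlap (limma adjusted p = 0.165). The B-lineage list was mixed. Cd79a was at 14.1 to 27.5 FPKM, Cd79b at 3.57 to 6.94 FPKM, and Pax5 and Ebf1 at 0 to 0.00641 FPKM. Among the markers of other cell types, the macrophage marker Adgre1 was at 18.1 to 40.1 FPKM in control and at 44.1 to 76.7 FPKM in I13 with Csf1r at 0.0702 FPKM or less, and the haemoglobin gene Hba-a1 was at 0.210 to 1.18 FPKM in control and at 2.11 to 5.66 FPKM in I13. The part of these markers in the results below was not tested.

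Of the 53 complex I genes, 52 had a mean FPKM of at least 0.5 and were tested. The exception was Ndufa4l2, a relative of Ndufa4 known as a hypoxia-induced gene, which was at 0 to 0.207 FPKM with at most 4 fragments in a sample. With limma and Benjamini-Hochberg adjustment, none of the 52 was called in either direction, which required an adjusted p under 0.05 together with a log2 fold change of 0.58 or more in size, where 0.00822% of all 12163 genes tested were called lower and 0.0329% higher in I13. The lowest adjusted p among them was 0.109, for the accessory subunit gene Ndufs6. The differences described here therefore did not pass the test across all genes, and they are given as values. At an unadjusted p below 0.05, 10 of the 52 (19.2%) were lower in I13, against a background of 10.8% of all genes and of 15.6% of the abundant genes, whose mean FPKM was 10 or more, and 4 (7.69%) were higher, against 7.79% and 7.76%.

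Direction was counted in each class, without a test. All 7 nuclear core subunits had a lower mean in I13 on the log2 scale, with a median log2 fold change of -0.32. Of the 29 accessory subunits, 22 were lower and 7 were higher, with a median of -0.13. All 7 mitochondrially encoded subunits had a positive log2 fold change, with a median of 0.28, or 0.18 without control replicate 2, although that of mt-Nd1 was 0.00. The median of 0.28 is the value of mt-Nd4l, which rests on 9 to 30 fragments in a sample, and mt-Nd3 rests on 9 to 23. The 8 assembly factors divided into 5 lower and 3 higher with a median of -0.02, which turned to 0.01 when FPKM was rescaled to TPM. Over all genes tested, the median was -0.01, with 50.8% lower and 49.2% higher. The median complex I gene had a mean FPKM of 41.2, and among the 5100 abundant genes the median was -0.04, with 56.3% lower and 43.7% higher. A bulk sample does not tell fewer cells of a type from less RNA per cell.

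**Figure D1:**
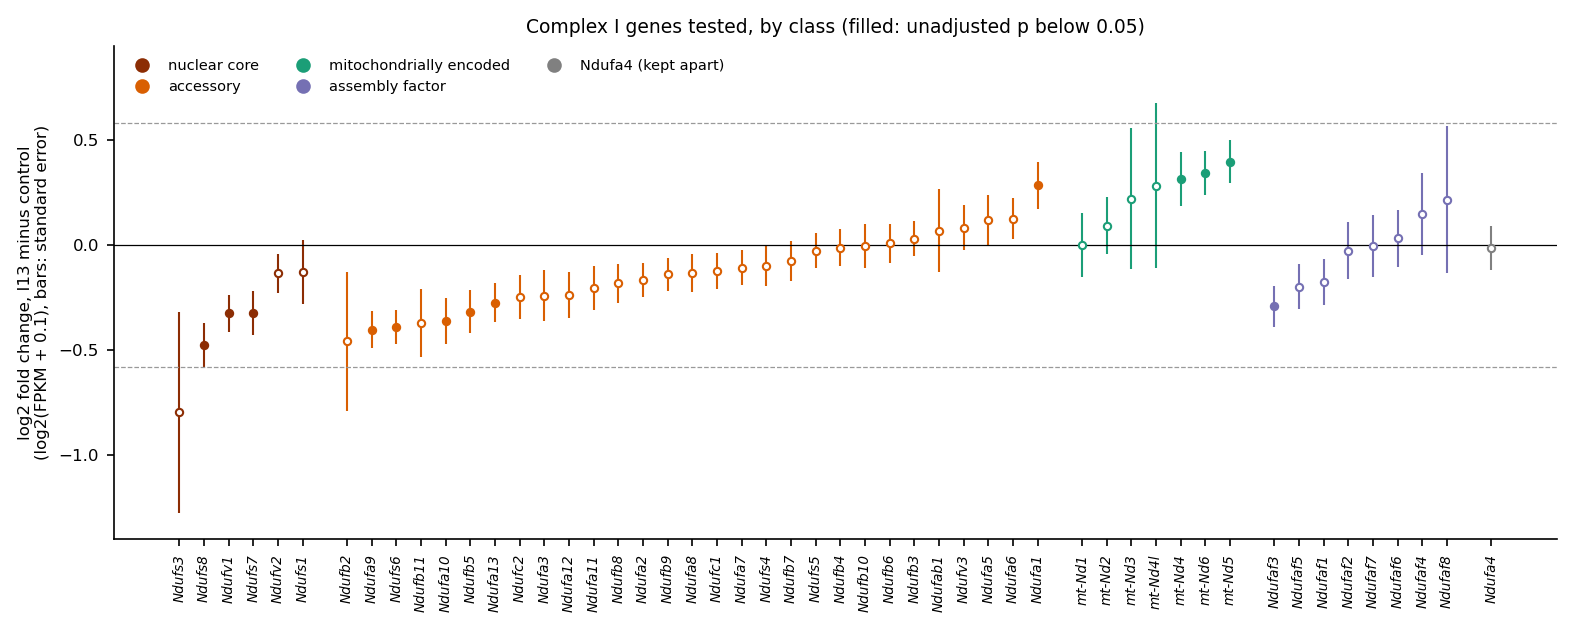
Each point is the log2 fold change of 1 of the complex I genes reported, I13 minus control on log2(FPKM + 0.1), on the vertical axis, with its standard error as a bar and the genes ordered within each class along the horizontal axis. Filled points have an unadjusted p below 0.05, and dashed lines mark 0.58 in each direction. The nuclear core genes, of which 6 are drawn, lie below 0, the 7 mitochondrially encoded genes at or above 0, and only the point of Ndufs3 lies beyond a dashed line, with the widest bar.

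The core subunits of the tip of the matrix arm, which accept electrons from NADH, are Ndufv1, Ndufv2 and Ndufs1. Ndufv1 (ENSMUSG00000037916), which binds NADH and the flavin, was at 85.2, 78.6 and 73.6 FPKM in control and at 63.6, 64.2 and 61.4 FPKM in I13, always in the order of replicates 1, 2 and 3. The groups did not overlap, and the log2 fold change was -0.32 ± 0.09 (SE, n = 3 per group; limma adjusted p = 0.137). Its partner Ndufv2, which holds an iron-sulfur cluster, was at 80.2, 80.0 and 70.8 FPKM in control and at 74.1, 70.8 and 65.8 FPKM in I13. The Ndufv2 groups overlapped, with I13 replicate 1 above control replicate 3, and had a log2 fold change of -0.13 ± 0.09. Ndufs1, the largest iron-sulfur subunit, was at 20.5, 26.3 and 18.9 FPKM in control and at 22.1, 20.4 and 17.4 FPKM in I13. Its groups overlapped, pair 1 went in the other direction, and the log2 fold change of -0.13 ± 0.15 came to 0.01 without control replicate 2.

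The core subunits nearer the membrane carry the electrons to ubiquinone. Ndufs8 (ENSMUSG00000059734), which holds a pair of iron-sulfur clusters, was at 77.2, 77.7 and 63.4 FPKM in control and at 51.3, 50.6 and 54.7 FPKM in I13. The I13 values, with an SD of 2.20 FPKM, lay below every control, a log2 fold change of -0.47 ± 0.11 (limma adjusted p = 0.113). Ndufs7, which holds the last cluster of the chain, was at 36.4, 44.9 and 37.7 FPKM in control and at 32.2, 30.2 and 32.2 FPKM in I13. Each I13 value of Ndufs7 was below each control value, with a log2 fold change of -0.32 ± 0.10 (limma adjusted p = 0.182).

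Ndufs3, a core subunit without a redox centre, had the lowest log2 fold change of all complex I genes, and also the largest standard error. Its FPKM was 5.70, 4.95 and 7.84 in control and 1.51, 4.08 and 6.50 in I13. Only 58 fragments were counted in I13 replicate 1, against 149 to 301 in the other samples. The log2 fold change was -0.80 ± 0.48 (limma adjusted p = 0.408), and -0.23 without I13 replicate 1. All 3 pairs were lower, with differences of -1.85, -0.27 and -0.27 on the log2 scale. The level of Ndufs3 was also far below that of Ndufs8 in the same arm of the complex, although FPKM is per length.

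**Figure D2:**
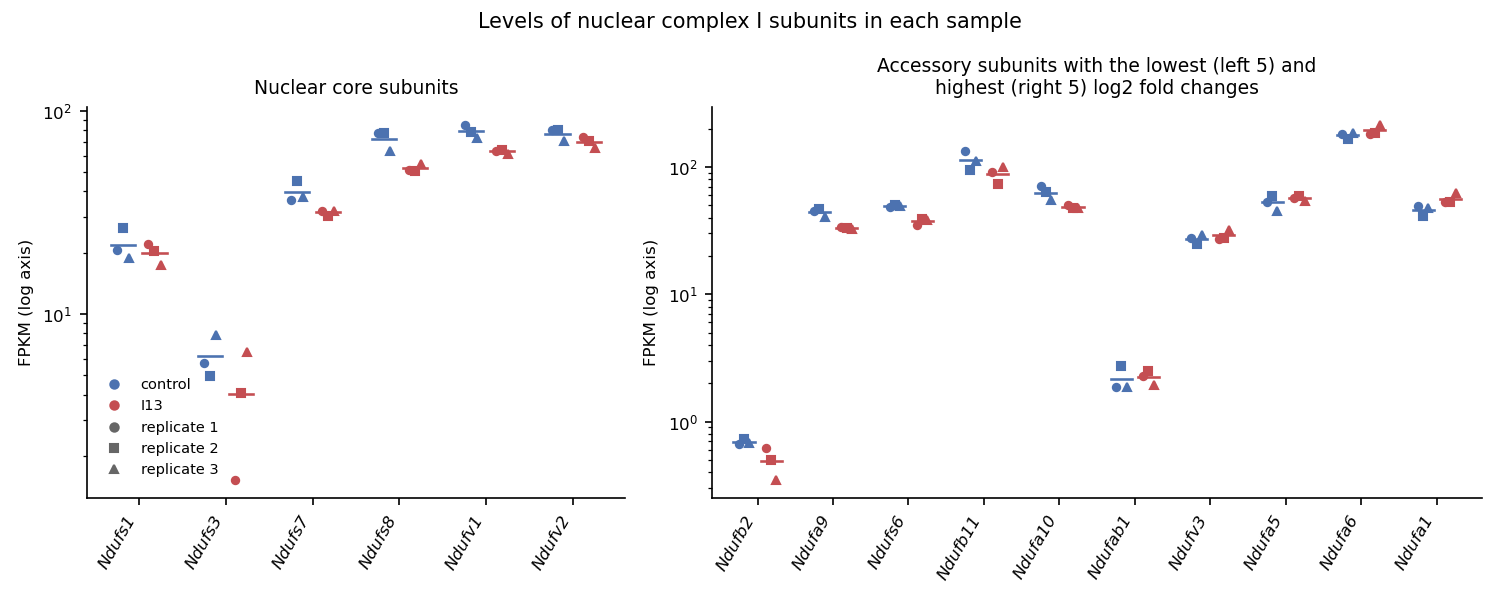
FPKM on a log axis of 6 nuclear core subunits (left) and of the 5 accessory subunits with the lowest and the 5 with the highest log2 fold changes (right) in each sample, with control in blue, I13 in red, a marker shape for each replicate number and a line at each group mean. The red and blue points of Ndufs7, Ndufs8 and Ndufv1 are separate, and the Ndufs3 value of I13 replicate 1, at 1.51 FPKM, stands below the rest.

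Among the core genes, the groups did not overlap for 4 of 7, all of them lower in I13. Over the 52 complex I genes, 19 (36.5%) were lower without overlap, against 15.4% of all genes tested and 21.4% of the abundant ones. In the higher direction, 4 (7.69%) did not overlap, against 9.82% and 8.59%. All 3 pairs were lower for 26 genes (50.0%), where the background was 27.3% of all genes and 35.8% of the abundant ones, and higher for 5 (9.62%), where it was 24.1% and 23.5%. Over all 36 nuclear subunits, the summed FPKM was 2200, 2134 and 2069 FPKM in control and 1919, 1877 and 2012 FPKM in I13, without overlap.

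The accessory subunits with the lowest log2 fold changes sit in both arms. Ndufs6 (ENSMUSG00000021606), a zinc-binding subunit of the matrix arm, was at 48.0, 50.3 and 48.8 FPKM in control and at 35.3, 38.7 and 38.4 FPKM in I13. With group means of 49.1 ± 1.18 (SD, n = 3) and 37.4 ± 1.88 FPKM, the gap was wider than the SD of either group, and the log2 fold change was -0.39 ± 0.08 (limma adjusted p = 0.109, and 0.0478 with the replicate block). Ndufa9 (ENSMUSG00000000399), which lies by the ubiquinone site and binds NADPH, was at 44.7, 46.8 and 40.2 FPKM in control and at 33.6, 33.2 and 32.7 FPKM in I13. The 3 I13 values of Ndufa9 had an SD of 0.474 FPKM, and the log2 fold change was -0.40 ± 0.09 (limma adjusted p = 0.113, and 0.0522 with the block). Ndufa10, a membrane arm subunit related to nucleoside kinases, was at 70.7, 63.1 and 54.5 FPKM in control and at 50.0, 47.9 and 47.9 FPKM in I13. Its groups were separate, with a log2 fold change of -0.36 ± 0.11 (limma adjusted p = 0.165).

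Ndufb11, a subunit that spans the inner membrane, was at 133, 94.9 and 112 FPKM in control and at 90.9, 72.7 and 99.3 FPKM in I13. The groups overlapped, but every pair was lower, with differences of -0.55, -0.38 and -0.17 on the log2 scale, and the log2 fold change was -0.37 ± 0.16 (limma adjusted p = 0.277), or -0.25 without control replicate 1 and -0.24 without I13 replicate 2. Ndufb2, another small membrane arm subunit, was at 0.672, 0.736 and 0.676 FPKM in control and at 0.625, 0.498 and 0.345 FPKM in I13. With 34 to 73 fragments in a sample, its log2 fold change of -0.46 ± 0.33 was imprecise, and it was -0.27 without I13 replicate 3. The FPKM of Ndufb2 rests on a recovered gene length of 5628 bases, so that its low level relative to other subunits depends on the length the authors used.

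At the other end of the accessory subunits was Ndufa1 (ENSMUSG00000016427), a small membrane protein encoded on the X chromosome. Its FPKM was 49.0, 41.4 and 47.3 in control and 52.5, 52.8 and 62.6 in I13. Ndufa1 was the only nuclear gene of the complex whose I13 values all lay above the controls, with a log2 fold change of 0.28 ± 0.11 (limma unadjusted p = 0.0355, adjusted p = 0.232). Ndufa6, which belongs to the LYR proteins and binds the acyl carrier protein, was at 180, 167 and 184 FPKM in control and at 183, 184 and 214 FPKM in I13. All 3 pairs of Ndufa6 were higher, but the groups overlapped, and the log2 fold change was 0.13 ± 0.10.

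The other 3 accessory genes at this end had overlapping groups. Ndufa5, a subunit of the ubiquinone-reducing part of the matrix arm, was at 53.3, 59.4 and 44.9 FPKM in control and at 57.2, 58.7 and 54.3 FPKM in I13. Ndufv3, found at the tip of the matrix arm, was at 27.7, 24.9 and 29.2 FPKM in control and at 27.3, 27.5 and 32.0 FPKM in I13. Ndufab1, the mitochondrial acyl carrier protein, which also serves fatty acid synthesis and iron-sulfur cluster assembly, was at 1.86, 2.71 and 1.87 FPKM in control and at 2.29, 2.49 and 1.93 FPKM in I13. Their log2 fold changes were 0.12 ± 0.12, 0.08 ± 0.11 and 0.07 ± 0.20. A processed pseudogene, Ndufab1-ps, was listed at 3.52 to 5.82 FPKM, above Ndufab1 itself in FPKM. Fragments of near-identical copies could have been divided between them by the counting. The FPKM of Ndufab1 also rests on 227 to 329 fragments in a sample and a recovered gene length of 6883 bases. Its level, also relative to the pseudogene, depends on the length the authors used and is uncertain.

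The 19 accessory subunits between these ends ranged in log2 fold change from -0.32 for Ndufb5 to 0.03 for Ndufb3, with a median of -0.13. Of these, 17 were lower, 9 of them without overlap. The ends had been taken off by the same fold changes, so these counts have no fair background. Of all 29 accessory subunits, 22 were lower, where 50.8% of all genes and 56.3% of the abundant ones were. Without overlap, 13 of the 29 were lower, where 15.4% and 21.4% were. Those of the 19 with an unadjusted p below 0.05 were Ndufb5, at 9.33, 10.2 and 8.99 FPKM in control and 7.70, 8.06 and 7.11 FPKM in I13, and Ndufa13. Ndufa13, also known as Grim-19 for its role in interferon-induced cell death, was at 68.2, 65.0 and 66.1 FPKM in control and at 50.8, 54.3 and 60.2 FPKM in I13. The values of Ndufb10, Ndufb4, Ndufb6 and Ndufs5 differed least between the groups, with log2 fold changes between -0.03 and 0.01 and standard errors of 0.08 to 0.11. The most abundant accessory gene was Ndufb9, at 222, 201 and 205 FPKM in control and 189, 187 and 194 FPKM in I13, again without overlap.

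Divided by position, the 16 nuclear subunits of the matrix arm had a median log2 fold change of -0.20, with 13 lower, and the 19 of the membrane arm had a median of -0.14, with 16 lower. When the 7 core genes were set aside, the 9 accessory subunits of the matrix arm had a median of -0.11, with 6 lower. Ndufa4 was at 127, 151 and 131 FPKM in control and at 144, 139 and 123 FPKM in I13, a log2 fold change of -0.01 ± 0.11 with overlapping groups.

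Of the mitochondrially encoded subunits, mt-Nd5, mt-Nd4 and mt-Nd2 are the proton-pumping subunits of the membrane arm, related to bacterial antiporters. mt-Nd5 (ENSMUSG00000064367) was at 1710, 1405 and 1590 FPKM in control and at 2009, 2188 and 1983 FPKM in I13. Its I13 values all lay above its control values, at means of 2060 ± 112 (SD, n = 3) and 1569 ± 154 FPKM, and the log2 fold change was 0.40 ± 0.10 (limma adjusted p = 0.131). mt-Nd4 was at 1402, 1024 and 1316 FPKM in control and at 1532, 1496 and 1582 FPKM in I13. The control value of replicate 2 was the lowest, the groups did not overlap, and the log2 fold change was 0.31 ± 0.13 (limma adjusted p = 0.255), or 0.18 without that replicate. mt-Nd2 was at 2444, 1909 and 1842 FPKM in control and at 2369, 2244 and 1959 FPKM in I13. The mt-Nd2 groups overlapped throughout, with a log2 fold change of 0.09 ± 0.14.

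mt-Nd6 is the one protein-coding message of the light strand of mouse mitochondrial DNA. It was at 715, 576 and 599 FPKM in control and at 774, 825 and 790 FPKM in I13, without overlap, and its log2 fold change was 0.34 ± 0.10 (limma adjusted p = 0.163). The gene lies next to mt-Nd5 on the opposite strand. The libraries were stranded, but the strand setting of the counting is not given in the sources used here, so mt-Nd5 and mt-Nd6 fragments may not be fully separate. In each sample the FPKM of mt-Nd6 was 0.377 to 0.418 times that of mt-Nd5, with overlapping ranges in control and I13.

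mt-Nd1, the subunit at the junction of the arms and near the ubiquinone site, was the most abundant complex I message. It was at 5190, 4361 and 3605 FPKM in control and at 4875, 4289 and 3911 FPKM in I13, with a log2 fold change of 0.00 ± 0.15. mt-Nd3 and mt-Nd4l, small membrane subunits, were listed at 1.48 to 3.75 FPKM and at 1.72 to 5.70 FPKM. For mt-Nd3 the values were 2.59, 1.96 and 1.63 FPKM in control and 3.75, 2.40 and 1.48 FPKM in I13. For mt-Nd4l they were 5.70, 1.72 and 2.87 FPKM in control and 3.44, 4.62 and 3.27 FPKM in I13. These levels rest on 9 to 23 and 9 to 30 fragments in a sample, and the log2 fold changes of 0.22 ± 0.34 and 0.28 ± 0.39 changed sign without I13 replicate 1 and without control replicate 2, respectively. mt-Nd4l overlaps mt-Nd4 in the genome, and parts of mitochondrial DNA have near-identical copies in the nuclear genome, so fragments of these genes may have been left out or assigned elsewhere by the counting.

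**Figure D3:**
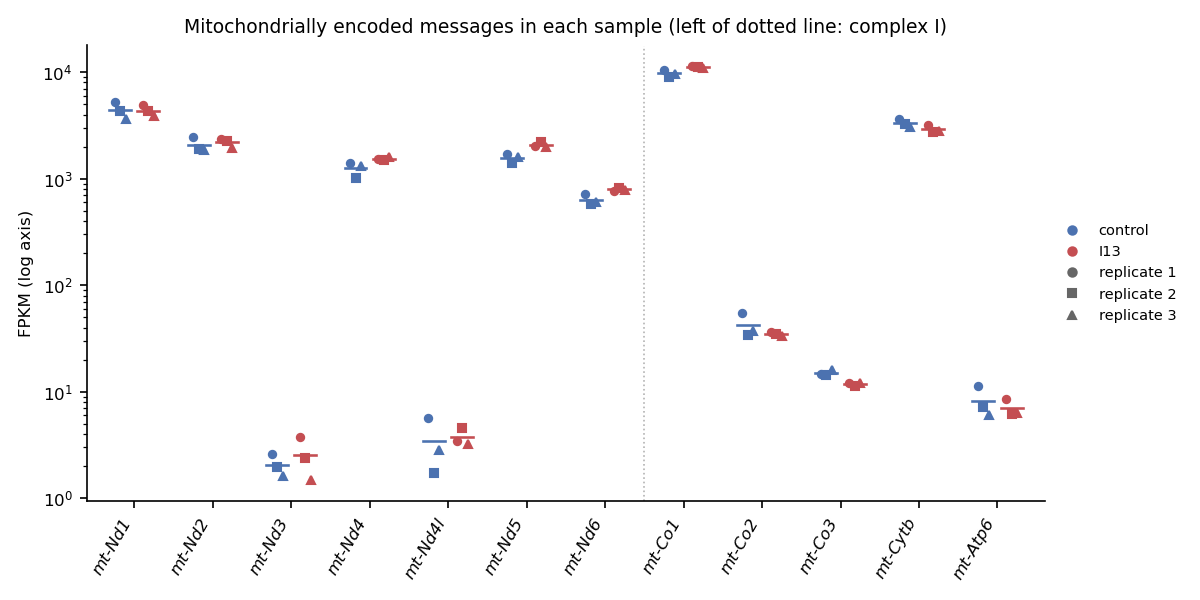
FPKM on a log axis of the 7 mitochondrially encoded complex I messages (left of the dotted line) and of 5 other mitochondrial messages (right) in each sample, with control in blue, I13 in red, marker shapes for the replicate numbers and lines at the group means. The red points of mt-Nd4, mt-Nd5, mt-Nd6 and mt-Co1 lie above the blue ones, those of mt-Co3 below, and the other genes overlap; mt-Nd3 and mt-Nd4l lie far below the other complex I messages.

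The mitochondrial messages of other complexes went in both directions. mt-Co1, the catalytic subunit of complex IV, was at 10560, 8932 and 9702 FPKM in control and at 11364, 11260 and 11039 FPKM in I13, a log2 fold change of 0.21 ± 0.10. mt-Cytb, the cytochrome of complex III, was at 3628, 3262 and 3043 FPKM in control and at 3223, 2757 and 2831 FPKM in I13, a log2 fold change of -0.17 ± 0.11. mt-Co3, another complex IV subunit, was listed at only 11.3 to 16.1 FPKM, and its log2 fold change was -0.35 ± 0.09 (limma adjusted p = 0.137). Of the 6 other protein messages, 5 were tested, with 4 lower and 1 higher, and mt-Atp8 was below the filter. Among the lower ones, mt-Co2, mt-Co3 and mt-Atp6 rest on 399 to 663, 148 to 222 and 70 to 138 fragments in a sample. The better counted messages were mt-Cytb, lower, with at least 52863 fragments, and mt-Co1, higher, with at least 243331. The mt-Nd fragments made up 1.29%, 1.04% and 1.04% of the library in control and 1.33%, 1.29% and 1.20% in I13, with overlap. The ratio of mt-Nd5 to mt-Nd1 FPKM overlapped too, at 0.330, 0.322 and 0.441 against 0.412, 0.510 and 0.507. The ratio of mt-Nd5 to mt-Cytb did not, at 0.471, 0.431 and 0.523 in control against 0.623, 0.794 and 0.701 in I13.

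The assembly factors followed no common direction. Ndufaf3 (ENSMUSG00000070283), which works with Ndufaf4 on the ubiquinone-reducing part of the matrix arm, was at 10.3, 10.7 and 12.0 FPKM in control and at 8.72, 8.74 and 9.44 FPKM in I13. Its groups did not overlap, and the log2 fold change was -0.29 ± 0.10 (limma unadjusted p = 0.0211, adjusted p = 0.194). Its partner Ndufaf4 was at 12.4, 16.7 and 10.6 FPKM in control and at 16.2, 15.8 and 11.8 FPKM in I13. The Ndufaf4 groups overlapped, with a log2 fold change of 0.15 ± 0.20. Ndufaf5, which hydroxylates an arginine of Ndufs7, was at 9.93, 11.7 and 10.1 FPKM in control and at 9.52, 9.54 and 8.53 FPKM in I13. These groups were separate, by a small margin, with a log2 fold change of -0.20 ± 0.11. Ndufaf8, the partner that stabilises Ndufaf5, was at 14.6, 8.50 and 5.17 FPKM in control and at 8.16, 12.0 and 10.3 FPKM in I13. The control values of Ndufaf8 spanned those of I13, and the log2 fold change of 0.22 ± 0.35 was -0.15 without control replicate 3.

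Ndufaf1, a member of the complex that assembles part of the membrane arm, was at 20.9, 20.2 and 18.4 FPKM in control and at 19.7, 16.9 and 16.1 FPKM in I13. All 3 pairs of Ndufaf1 were lower, with a log2 fold change of -0.18 ± 0.11 and overlapping groups. Ndufaf2, which acts late in assembly, was at 24.8, 28.5 and 20.6 FPKM in control and at 25.9, 23.8 and 22.3 FPKM in I13. Ndufaf7, a methyltransferase, was at 15.7, 21.3 and 15.8 FPKM in control and at 17.3, 19.4 and 15.6 FPKM in I13. Ndufaf6, an early factor, was at 6.76, 7.76 and 6.34 FPKM in control and at 6.16, 7.97 and 7.26 FPKM in I13. The groups of these last 3 genes overlapped, and their log2 fold changes lay between -0.03 and 0.03 with standard errors of 0.13 to 0.15.

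Further assembly factors have names outside the Nduf series. Of 12 in the list, 11 were found and tested, of which 8 were lower and 3 higher in I13, with a median log2 fold change of -0.08. None had an adjusted p below 0.05 with limma, and 3 had an unadjusted p below 0.05, all lower, where 10.8% of all genes were. Dmac2, listed under its older symbol Atp5sl and needed for the distal end of the membrane arm, was at 8.78, 8.30 and 8.19 FPKM in control and at 6.28, 6.97 and 6.11 FPKM in I13. Dmac1, listed as Tmem261 and needed for the same end, was at 77.3, 78.1 and 71.4 FPKM in control and at 62.7, 58.1 and 65.1 FPKM in I13. Ecsit, which works with Ndufaf1, was at 14.5, 18.3 and 14.8 FPKM in control and at 13.1, 12.9 and 13.1 FPKM in I13. These 3 were named for having the lowest p in the list, and none of them overlapped between the groups. They were the only ones of the 11 lower without overlap, where 15.4% of all genes were. Their log2 fold changes were -0.38 ± 0.10, -0.29 ± 0.09 and -0.27 ± 0.11 (limma adjusted p = 0.131, 0.163 and 0.255). Acad9 and Tmem126b, which act in the same membrane arm complex as Ecsit and Ndufaf1, had log2 fold changes of -0.04 ± 0.11 and 0.16 ± 0.14.

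**Figure D4:**
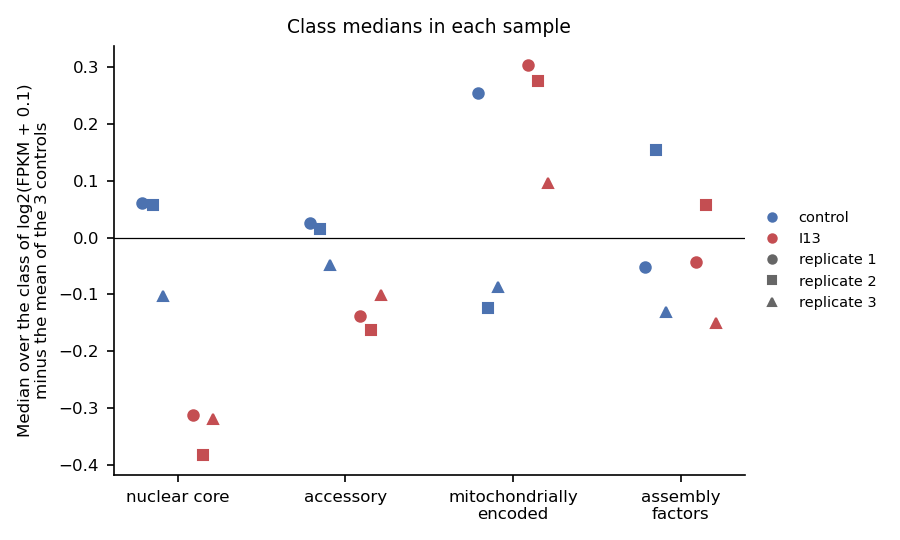
For each sample, the vertical axis gives the median over a class of complex I genes of log2(FPKM + 0.1) minus the mean of the 3 controls, and the horizontal axis gives the 4 classes, with control in blue, I13 in red and marker shapes for the replicate numbers. The I13 medians of the core genes, -0.38 to -0.31, and of the accessory genes, -0.16 to -0.10, lie below those of the controls, while the groups overlap for the mitochondrially encoded genes and the assembly factors.

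By sample, the median of the core genes against the control mean was 0.06, 0.06 and -0.10 in the controls and -0.31, -0.38 and -0.32 in the I13 samples. The accessory genes gave 0.03, 0.02 and -0.05 in the controls and -0.14, -0.16 and -0.10 in the I13 samples. The medians of the mitochondrially encoded genes were 0.25, -0.12 and -0.09 in the controls and 0.30, 0.28 and 0.10 in the I13 samples. Control replicate 1 therefore lay among the I13 samples for this class. The medians of the assembly factors were -0.05, 0.15 and -0.13 against -0.04, 0.06 and -0.15, and same-numbered samples lay closest together.

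Genes that act on mitochondrial DNA and RNA or regulate respiratory genes were counted beside the complex. Of 20 genes for mitochondrial transcription and RNA, 19 were tested, with 9 lower, 10 higher and a median log2 fold change of 0.00. The lowest unadjusted p belonged to Fastk, which controls the level of the mt-Nd6 message, at 13.6, 13.2 and 12.9 FPKM in control and at 10.8, 11.3 and 10.5 FPKM in I13. Its log2 fold change was -0.29 ± 0.09 (limma adjusted p = 0.162). Mterf1a, a mitochondrial transcription termination factor, had a log2 fold change of 0.46 ± 0.19, and Polg, the mitochondrial DNA polymerase, one of -0.26 ± 0.12, with adjusted p of 0.261 and 0.305 with limma. Of 9 regulators, 8 were tested, with 4 lower and 4 higher. Myc, a transcription factor with many mitochondrial targets, was at 142, 170 and 133 FPKM in control and at 195, 222 and 159 FPKM in I13. All 3 Myc pairs were higher but the groups overlapped, with a log2 fold change of 0.37 ± 0.15 (limma adjusted p = 0.252). The coactivator Pprc1 and the nuclear receptor Esrra had log2 fold changes of -0.15 ± 0.12 and -0.15 ± 0.12, and none of the genes in these lists had an adjusted p below 0.05 with limma, with or without the block.

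**Figure D5:**
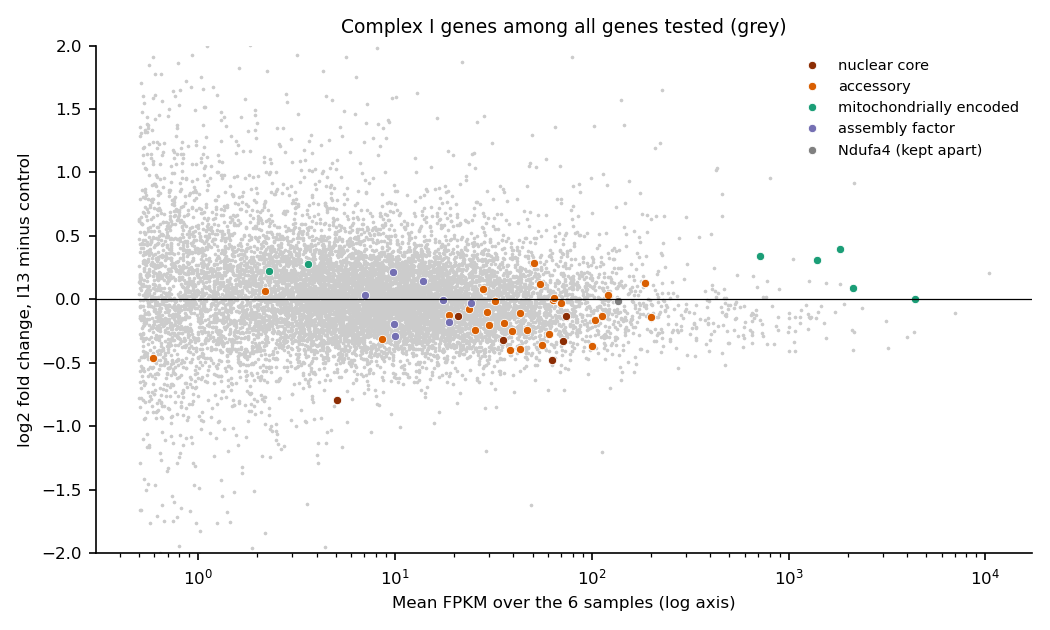
Each grey point is 1 of the 12163 genes tested, with its mean FPKM over the 6 samples on a log horizontal axis and its log2 fold change, I13 minus control, on the vertical axis, and the complex I genes reported are coloured by class. The axis ends at 2 in each direction, which leaves out 61 grey points. The core genes lie between -0.80 and -0.13 within the cloud, and the 5 abundant mitochondrially encoded genes lie at the right, at 0.00 to 0.40.

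With the replicate number as a block, 2 complex I genes had an adjusted p below 0.05 with limma, both lower and Ndufs6 among them, where 1.24% of all genes were lower and 1.75% higher. Neither reached a log2 fold change of 0.58, so that none was called under both thresholds, where 0.526% of all genes were called lower and 1.36% higher. At an unadjusted p below 0.05 with the block, 15 complex I genes (28.8%) were lower against 14.8% of all genes, and 4 (7.69%) were higher against 13.2%. The share of the abundant genes was not computed with the block, for FPKM or for voom. Without the block, 15.6% of the abundant genes and 10.8% of all genes were lower at an unadjusted p below 0.05 with limma. When the recovered fragments were analysed with limma's voom and the block, 8 were lower at an adjusted p below 0.05 against 5.77% of all genes, among them Ndufs6, Ndufs8, Ndufv1, Ndufa9, Ndufa10, Ndufb5 and Ndufb11. In that fit 3 were higher against 6.61%, namely mt-Nd4, mt-Nd5 and mt-Nd6. Without the block, voom gave none at that threshold. With the block and a correction for gene length, Ndufs6 had an adjusted p of 0.0535. In the fit with the block on FPKM, none remained at an adjusted p below 0.05 when any of the 3 pairs was left out.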

How the data were processed

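mRNA of BaF3-T315I cells was sequenced in 3 control and 3 I13 samples, which were assigned to groups from the labels. The authors deposited FPKM values per gene and sample, without pooling and with no scaling between samples stated. The submitters' processing notes name Trimmomatic, HISAT2, Cufflinks and HTSeq and the build hg38, and the labels name the organism as human, whereas the gene identifiers are those of mouse and the methods call the cells murine, so the values were used as mouse genes. Versions, annotation and strand setting are not given in the sources used here. No mouse genome was used, so no sequences or coordinates are given.

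Log2(FPKM + 0.1) was compared with limma 3.58.1 in R 4.3.3 (eBayes with a trend, two-sided, Benjamini-Hochberg adjustment) in the 12163 genes whose FPKM averaged 0.5 or more over the samples. For genes of low FPKM the pseudocount makes the fold change too small. A call needed an adjusted p under 0.05 together with a log2 fold change of 0.58 or more in size. The test was run on simulated data beforehand. Whole fragments and gene lengths were recovered from the FPKM values for 22412 of 22413 genes within 0.01 fragments, and they put 99.4% to 99.5% of the library totals on listed genes. Correlations of same-numbered control and I13 samples in their deviations from the group means were 0.145, 0.301 and 0.219. Those of other pairs were -0.258 to 0.0503. Because the deviations are centred in each group, positive values for same-numbered samples make the others negative on balance. That contrast is therefore partly built in, and it comes from the same values as the block fit. The numbers of the labels were taken to pair the samples, but no source says what a number marks. The block was an alternative, as were other pseudocounts, filters and scalings, eBayes without a trend, a correction for gene length, voom on the fragments, and leaving out samples or pairs.

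Members and lists were chosen with earlier results of these data known. All core, mitochondrially encoded and Ndufaf genes were named except 1 core gene, which counts in the totals but is not reported here, with the 5 accessory genes lowest and the 5 highest in log2 fold change, any gene with an adjusted p below 0.05 in the fit without or with the block, and the 3 genes of lowest p in each other list. Ndufb5, Ndufa13, Ndufb9, Ndufb3, Ndufb4, Ndufb6, Ndufb10, Ndufs5, Acad9 and Tmem126b were named after their values were seen. Per-sample columns left without a sample numbered 0. Plots were made in Python 3.11.15 using matplotlib 3.10.9.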

Additional observations from a re-analysis of the deposited data

How the results depend on the processing

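Counts were at most 73 fragments in a sample for Ndufb2, 23 for mt-Nd3 and 30 for mt-Nd4l, which limits their precision, and with 3 samples per group an exact permutation test of a single gene cannot go below p = 0.1. Under every alternative, 0 complex I genes were called at the thresholds for both p and fold change. Their counts at an unadjusted p below 0.05 came to 2 higher without a filter on FPKM, with median-ratio scaling and with eBayes without a trend, to 1 higher with the replicate block and without replicate 2, and to 16 lower with voom and the replicate block. Leaving out 1 sample gave 2 to 5 higher and 7 to 14 lower, and a median of -0.15 to -0.095 for accessory subunits, of 0.18 to 0.40 for mitochondrially encoded subunits and of -0.15 to 0.10 for assembly factors. Over all genes, 2 were called higher and 0 lower with a pseudocount of 0.01 or median-ratio scaling, 3 lower without a filter or without a trend, 166 higher and 64 lower with the replicate block, 165 and 76 with the block and a length correction, and 375 and 128 with voom and the block. Leaving out 1 sample gave 0 and 0, and the block gave 78 higher and 5 lower without replicate 1, and 0 and 0 without replicate 2 or replicate 3.

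The 32 genes picked by the rule for naming, with the core gene not reported here among them, gave 671 values under alternatives. Of these, 631 kept their direction and their side of an adjusted p of 0.05. A further 13 passed that p with the block (FPKM, length correction or voom), and 27 changed sign. When samples were left out in turn, those that changed sign ranged from -0.23 to 0.012 for Ndufs1, -0.13 to 0.13 for mt-Nd1, -0.097 to 0.55 for mt-Nd3, -0.11 to 0.72 for mt-Nd4l, -0.15 to 0.084 for Ndufaf2, -0.051 to 0.13 for Ndufaf6, -0.081 to 0.14 for Ndufaf7, -0.15 to 0.59 for Ndufaf8 and -0.019 to 0.24 for Ndufab1. With the block, the log2 fold change was -0.057 for mt-Nd1, -0.048 for Ndufaf6, 0.0046 for Ndufaf7 and -0.17 for Ndufaf8 without replicate 3, -0.26 for mt-Nd4l, 0.088 for Ndufaf2 and 0.064 for Ndufaf7 without replicate 2, and -0.040 for Ndufab1 without replicate 1. Rescaling to TPM gave 0.0022 for Ndufaf2 and 0.026 for Ndufaf7, and 29 in place of 35 complex I genes lower, with a median over all genes of 0.02. Median-ratio scaling gave 0.0087 for Ndufaf7, and voom with the block gave -0.00091 for mt-Nd1. The cause of these changes was not tested. Apart from the calls given with the results and here, the block changed no call of a named gene.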
